A study of Mus musculus with 8 samples.

Results

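10 genes of the desmosome were followed through the series by symbol: desmoplakin (*Dsp*), plakoglobin (*Jup*), the plakophilins *Pkp1* and *Pkp3*, the desmogleins *Dsg1a* and *Dsg3*, the desmocollins *Dsc1*, *Dsc2* and *Dsc3*, and the membrane protein gene *Perp*. They are 10 of the 19591 genes listed in any of the 8 samples. The samples are 2 sets of bulk libraries from sorted epidermal cells and 6 plates of single cells, all from adult mouse skin epidermis on the C57BL/6 background. Every mouse carried *Troy*-EGFP-IRES-CreERT2, in which green fluorescent protein and a tamoxifen-inducible Cre recombinase stand in the *Troy* (*Tnfrsf19*) locus in place of its coding region, so that there was no unmodified control and both reporters follow the *Troy* promoter. The bulk libraries held DAPI- viable cells, ITGA6bright EGFP+ basal cells and ITGA6bright EGFP- basal cells of 2 mice; ITGA6 is an integrin that is strong on basal cells. Of the plates, 4 came from 4 *Troy*-EGFP mice, called mice 1 to 4 here, and 2 plates came from mice that also carried Rosa26-LSL-tdTomato, in which Cre switches on a red label that daughter cells inherit. These are called traced mice 1 and 2. Per the methods, mice were 7 to 9 weeks old, the traced mice were homozygous for both alleles, and their skin was taken 7 days after 1 dose of tamoxifen. Their plates mix tdTomato+ and tdTomato- cells. Per the paper, cells of mice 1 to 4 were sorted as ITGA6-, ITGA6bright EGFP- and ITGA6bright EGFP+, and traced cells by ITGA6, EGFP and tdTomato. The gate of a well was not used here, so a difference between classes can also be a difference between gates. *Dsc2* is not listed in the first bulk table or on the plate of mouse 2, and *Dsc1* is not listed on the plate of mouse 1. The other 8 genes are listed in every sample.

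Desmosomes are buttons of adhesion that tie the keratin filaments of one keratinocyte to those of its neighbour and let skin bear stretch. Desmogleins and desmocollins are cadherins that cross the membrane and meet between the cells, plakoglobin and the plakophilins bind their tails in a dense plaque, and desmoplakin links the plaque to keratin. Perp is a tetraspan membrane protein found in desmosomes of stratified epithelia. In textbook epidermis desmoglein 3 is strongest in the basal layer, and desmoglein 1 and desmocollin 1 become stronger as cells move up and cornify.

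On GRCm38 (GENCODE vM21) *Dsp* lies on chromosome 13 from 38151294 to 38198577 (plus strand), *Jup* on chromosome 11 from 100368958 to 100397763 (minus), *Pkp1* on chromosome 1 from 135871395 to 135919207 (minus), *Pkp3* on chromosome 7 from 141078218 to 141090510 (plus) and *Perp* on chromosome 10 from 18845020 to 18857073 (plus). The bases just upstream of *Dsp*, the gene of the plaque's keratin linker, and of *Jup*, its cadherin-binding partner, are shown as those of the plaque genes that the RefSeq table (GRCm38.p6) gave; *Perp*, *Pkp1* and *Pkp3* are named only. Capitals mark the motifs found.

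Dsp, chr13:38151044-38151293, plus strand: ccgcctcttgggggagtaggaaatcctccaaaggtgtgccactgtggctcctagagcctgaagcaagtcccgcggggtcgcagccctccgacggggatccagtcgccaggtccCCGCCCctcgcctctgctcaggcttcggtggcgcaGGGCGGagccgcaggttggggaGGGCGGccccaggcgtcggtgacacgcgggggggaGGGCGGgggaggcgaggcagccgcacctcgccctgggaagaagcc
Jup, chr11:100397791-100398040, minus strand: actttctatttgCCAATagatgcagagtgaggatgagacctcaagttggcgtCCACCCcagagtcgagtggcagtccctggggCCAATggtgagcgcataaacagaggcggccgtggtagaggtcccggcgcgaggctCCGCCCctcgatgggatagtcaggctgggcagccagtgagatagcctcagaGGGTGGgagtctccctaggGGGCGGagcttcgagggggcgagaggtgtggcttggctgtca

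The 250 bases before *Dsp* are 72.4% G or C and hold GGGCGG (the GC box) 4 times, counting both strands. Those before *Jup* are 62.0% G or C and hold GGGCGG 2 times, CCACCC 2 times and CCAAT 2 times. Over 32851 promoter windows of the same length the median G or C content was 52.4%. GGGCGG occurred in 32.7% of those windows, CCACCC in 28.1% and CCAAT in 33.8%. The motifs TGANTCA (6.7% of windows), CACCTG (17.2%) and TATAAA (12.4%) were also searched on both strands and are not in these 2 windows. These matches are letters in a window and not sites of binding.

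Bulk libraries held 157537 to 453005 counts, and levels are given as counts per 1000000 (CPM) after scaling by the trimmed mean of M values (TMM). Plates had 384 wells each, of which 71, 129, 218 and 262 (mice 1 to 4) and 229 and 200 (traced mice) held at least 1000 transcripts and were kept, with medians from 1676 to 3267 transcripts. Cells of mice 1 to 4 were clustered without the 10 genes and without 37 other junction genes, and the traced cells took their class from them. The interfollicular epidermis (IFE) class called IFE I-like (161 cells, 153 traced) led in *Krt14*, a basal keratin (mean 9042 CPM, at most 3249 in another class of mice 1 to 4). The IFE II-like class (116 and 51 cells) led in *Krt10* (15395 CPM, at most 1345 elsewhere) and *Krt1*, keratins of cells that have committed to differentiate. The lower hair follicle (HF) class (lower HF-like, 155 and 107 cells) led in *Cd34* (1772 CPM, at most 19.2 elsewhere) and *Postn*, and the upper HF-like class (68 and 91 cells) in *Krt79* (8046 CPM, at most 432 elsewhere) and *Cst6*. Transcripts were summed per class and mouse where at least 10 cells were found, so that mouse 1 gave only an IFE I-like sum of 10 cells. These class sums held 36902 to 336145 transcripts. Some facts touch results below. The plates of mice 1 and 2 were shallower than those of mice 3 and 4 and held no mitochondrial rows. A single well of traced mouse 2 held 50743 transcripts, 23.5% of its lower HF-like sum, with 1123 transcripts of *Krt10*. Of the 91 traced upper HF-like cells, 55 fell in a cluster of 94 cells that could not be named. Results are given with and without that well and that cluster where they rest on them.

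Most desmosome genes had their highest mean level in IFE II-like cells: *Dsp*, *Jup*, *Pkp1*, *Dsg1a*, *Dsc3* and *Perp* (6 of 10) did so both in mice 1 to 4 and in the traced mice. For *Dsp* the traced order rests on the unnamed cluster. Without that cluster its log2 fold change against IFE I-like cells was 1.12 in upper HF-like and 0.94 in IFE II-like cells. In IFE II-like against IFE I-like cells, *Dsp*, *Jup*, *Pkp1*, *Dsg1a*, *Dsc1*, *Dsc3* and *Perp* were higher in 5 of 5 mice that gave both classes, the traced mice included, and *Dsg3* was lower in 5 of 5. The share of all genes with such an order of means or of mice was not counted. The edgeR quasi-likelihood test over mice 1 to 4 called 1 of the 7 testable genes at an adjusted p of 0.05, *Perp*, where 4.25% of 2963 genes were called. DESeq2 called 3, *Dsp*, *Dsg1a* and *Perp*, against 3.31% of the genes to which it gave an adjusted p. With the mouse as a block, since both classes came from the same animals, edgeR called 6 of 7, all higher, where 11.9% of genes were called and 5.94% were called higher. In the traced mice edgeR called 6 of the same 7, all higher, against 7.34% of 4470 genes called and 3.83% called higher. It also called *Dsc1*, which with *Dsg3* was testable there through the classes where it was high and is left out of this count. The median log2 fold change of the 7 genes was 1.05 (all genes, -0.02), and in the traced mice it was 1.37 (all genes, -0.01). A class sum cannot tell more RNA per cell from more cells that carry it, and the same holds for the bulk libraries.

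**Figure D1:**
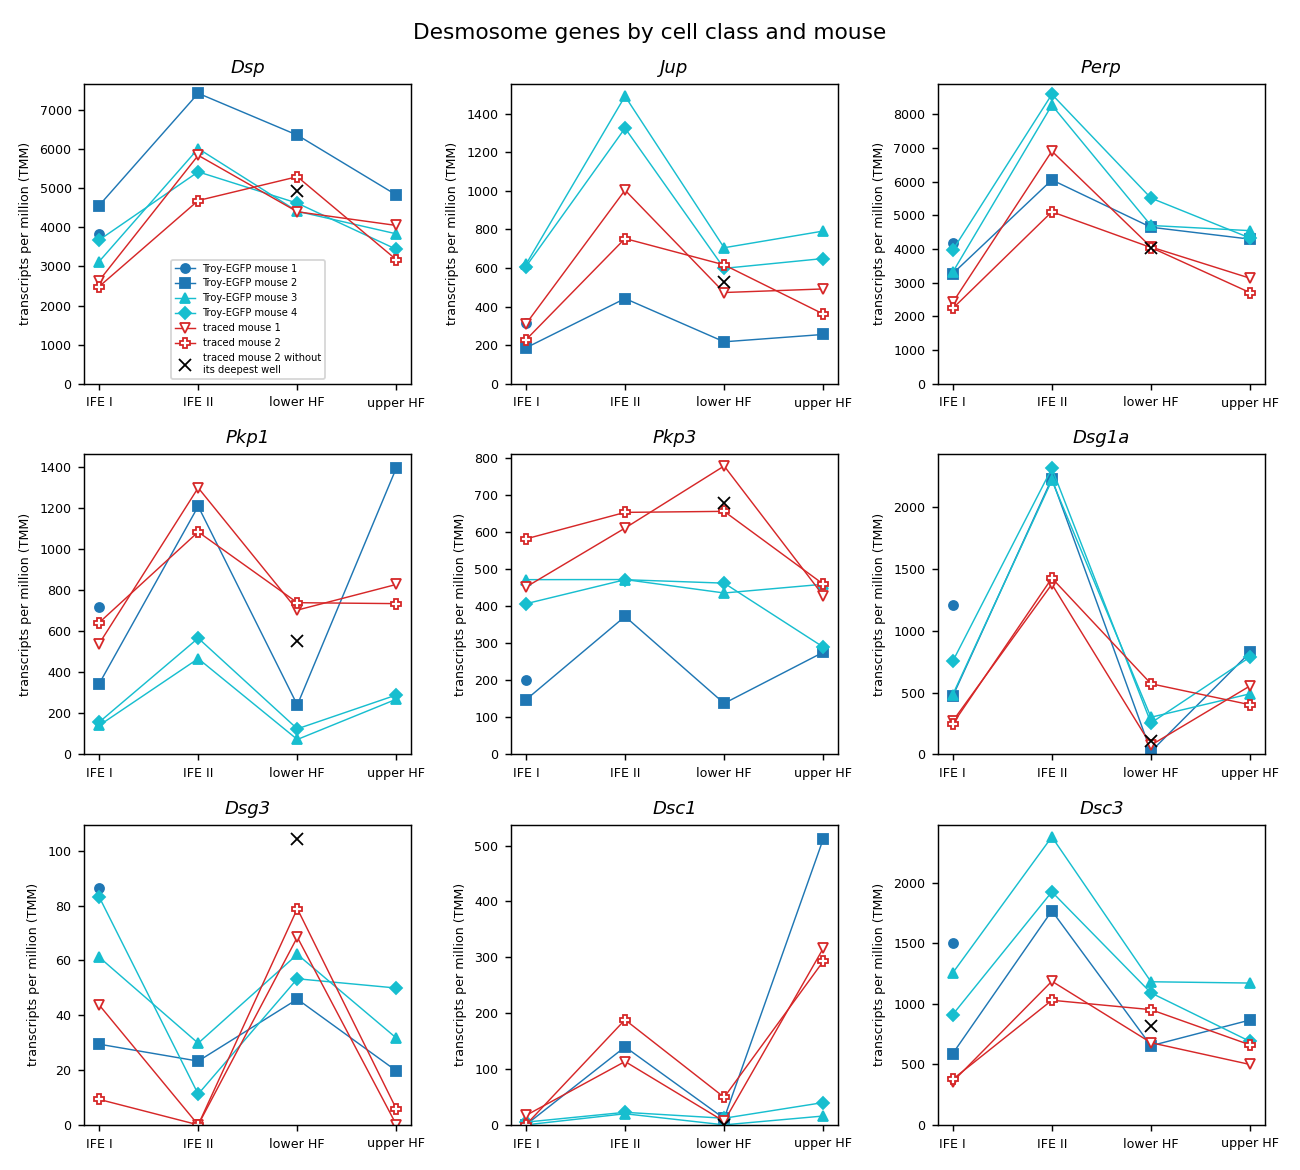
Level of 9 desmosome genes (CPM, linear axes from 0) in the class sums of each mouse, with filled symbols for mice 1 to 4, open symbols for the traced mice, a line joining the classes of 1 mouse, and a cross for traced mouse 2 without its deepest well. *Dsg1a* lay at 1378 to 2317 CPM in all 5 IFE II-like sums and at 247 to 1210 CPM in the 6 IFE I-like sums, and the mean of *Dsc1* was highest in upper HF-like cells.

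Desmoplakin was read in all 4 classes. In mice 1 to 4 the IFE I-like sums gave 3832, 4554, 3122 and 3672 CPM of *Dsp*, and the IFE II-like sums of mice 2 to 4 gave 7419.9, 6009 and 5414 CPM. The IFE II-like sums all lay above the IFE I-like sums. The log2 fold change was 0.73 ± 0.23 (SE, adjusted p = 0.111) without the block and 0.73 ± 0.16 (SE, adjusted p = 0.00108) with it. Traced IFE I-like sums gave 2634 and 2484 CPM and traced IFE II-like sums 5836 and 4681 CPM, a log2 fold change of 1.04 ± 0.16 (SE, adjusted p = 0.000508). The means of the follicle classes lay between these: lower HF-like sums gave 6352, 4406 and 4614 CPM and upper HF-like sums 4823, 3830.4 and 3435 CPM in mice 2 to 4. Lower HF-like cells had more *Dsp* than IFE I-like cells in 5 of 5 mice, and the test called this in the traced mice, where sums of 4395 and 5290.1 CPM gave 0.92 ± 0.16 (SE, adjusted p = 0.000698). It did not in mice 1 to 4, where the ranges of both classes overlapped (0.43 ± 0.23 (SE, adjusted p = 0.391)).

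Plakoglobin also serves adherens junctions and Wnt signalling. IFE I-like sums held 317, 186, 618 and 607 CPM of *Jup* and IFE II-like sums 442, 1489.7 and 1324 CPM. Mouse 2 was low in both classes, at 186 and 442 CPM, so the ranges overlapped although IFE II-like cells were higher in each mouse that gave both. The log2 fold change was 1.32 ± 0.53 (SE, adjusted p = 0.24) without the block and 1.20 ± 0.21 (SE, adjusted p = 7.58e-05) with it. Traced *Jup* sums went from 309.9 and 228 to 1003 and 753 CPM, or 1.70 ± 0.28 (SE, adjusted p = 0.000668). The traced lower HF-like sums held 473 and 616 CPM, which the test called against IFE I-like at 1.01 ± 0.27 (SE, adjusted p = 0.0169). That call was lost without the unnamed cluster (0.80 ± 0.31 (SE, adjusted p = 0.0921)).

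Among the plakophilins, which thicken the plaque, *Pkp1* was higher in IFE II-like than in IFE I-like cells of each mouse that gave both, and *Pkp3* differed less. *Pkp1* stood at 720.2, 344, 141 and 157 CPM in IFE I-like sums, 1209.5, 467 and 567 CPM in IFE II-like sums, 241, 72.6 and 124 CPM in lower HF-like sums and 1398, 269 and 289.6 CPM in upper HF-like sums. Mice 1 and 2 were above mice 3 and 4 in each class that they gave. That split also divides the plates by depth, by mitochondrial rows and by the letter M or F in their labels, which cannot be told apart within these 4 mice. The traced plates also held no mitochondrial transcripts, at medians of 3267 and 3214 transcripts per kept well. *Jup* and *Pkp3* split the other way in IFE I-like sums, with mice 1 and 2 below mice 3 and 4. Against IFE I-like cells the log2 fold change of *Pkp1* in IFE II-like cells was 1.22 ± 0.68 (SE, adjusted p = 0.478) without the block and 1.82 ± 0.26 (SE, adjusted p = 2.46e-06) with it. Traced sums gave 539 and 642 CPM for IFE I-like and 1299.7 and 1085 CPM for IFE II-like cells, a change of 1.02 ± 0.22 (SE, adjusted p = 0.00646). In upper HF-like cells *Pkp1* was higher than in IFE I-like cells in 5 of 5 mice, and the test called it with the mouse as a block at 1.39 ± 0.28 (SE, adjusted p = 0.000443) but not without it (1.03 ± 0.68 (SE, adjusted p = 0.527)). *Pkp3* held 202, 147, 471 and 406 CPM in IFE I-like and 372, 472 and 471 CPM in IFE II-like sums, overlapping ranges that gave 0.48 ± 0.45 (SE, adjusted p = 0.778). Traced sums held 451 and 581 and 611 and 653 CPM, or 0.29 ± 0.24 (SE, adjusted p = 0.581). In mouse 3 the *Pkp3* levels of both classes differed by less than 1 CPM, and their order was the opposite before TMM scaling (95 of 248233 transcripts in IFE II-like and 77 of 192048 in IFE I-like cells). *Pkp3* was called neither with nor without the block.

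*Dsg1a*, a mouse copy of desmoglein 1, had the highest mean level of the desmogleins in each class of mice 1 to 4. The 5 cadherin genes sit in 1 cluster on chromosome 18 (GRCm38, GENCODE vM21), with the desmocollins on the minus strand (*Dsc3* from 19960930, *Dsc2* from 20030633 and *Dsc1* from 20084184) and *Dsg1a* (from 20310811) and *Dsg3* (to 20547459) on the plus strand. Reads were counted at the 3′ end of each RNA, and none of the 50-base words in the last 500 bases of *Dsg1a* occurred in a transcript of another desmoglein gene. Of those in the last 500 bases of *Dsg1b*, 6.43% occurred in a *Dsg1a* transcript, so some reads of *Dsg1b* could be counted for *Dsg1a*. IFE I-like sums gave 1210.0, 471, 484 and 754 CPM, IFE II-like sums 2233, 2219.7 and 2317 CPM, lower HF-like sums 22.9, 301 and 255 CPM and upper HF-like sums 827, 491 and 789 CPM. The IFE II-like sums lay above every other sum and the lower HF-like sums below every other sum. For IFE II-like against IFE I-like cells the log2 fold change was 1.66 ± 0.51 (SE, adjusted p = 0.0979) without the block and 1.99 ± 0.27 (SE, adjusted p = 1.29e-06) with it. The traced mice gave 269 and 247 CPM in IFE I-like and 1378 and 1428 CPM in IFE II-like sums, a change of 2.44 ± 0.47 (SE, adjusted p = 0.00283).

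In lower HF-like cells of mice 1 to 4 *Dsg1a* was lower than in IFE I-like cells in 3 of 3 mice, by -1.86 ± 0.56 (SE, adjusted p = 0.0593) without the block and -1.53 ± 0.32 (SE, adjusted p = 0.000608) with it. No gene of the 7 was called in this comparison without the block (7.59% of all genes were called, and 1 of the 7 had an unadjusted p under 0.05), while DESeq2 called 1, *Dsg1a*, at -1.81 ± 0.52 (SE, adjusted p = 0.0182), and 3.61% of the genes to which it gave an adjusted p. With the block 2 were called, *Dsg1a* and *Perp*, against 16.7% of genes. In traced cells the sums were 74.7 and 572 CPM, and traced mouse 2 stood far above traced mouse 1. The single deepest well carried 99 of the 116 *Dsg1a* transcripts of that mouse's sum. Without it the sums were 74.4 and 111 CPM, and the change against IFE I-like cells went from 0.36 ± 0.48 (SE, adjusted p = 0.713) to -1.50 ± 0.32 (SE, adjusted p = 0.00122). Of the 9 genes testable in the traced mice, 4 were called in this comparison, all higher (*Dsp*, *Jup*, *Dsc3* and *Perp*), where 14.8% of genes were called and 8.39% were called higher. Without that well 5 were called, 4 higher and *Dsg1a* lower, where 18.8% of genes were called.

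Upper HF-like cells held more *Dsg1a* than lower HF-like cells in 3 of 3 of mice 2 to 4, a change of 1.84 ± 0.58 (SE, adjusted p = 0.0847) without the block and 1.82 ± 0.34 (SE, adjusted p = 0.000139) with it. No gene of the 7 was called between the follicle classes without the block, where 6.48% of genes were called and 2 of the 7 had an unadjusted p under 0.05, and DESeq2 called 1, *Dsg1a*, against 3.07% of genes. With the block *Dsg1a* and *Pkp1* (1.94 ± 0.31 (SE, adjusted p = 1.25e-05)) were called, against 14.9% of genes. The traced upper HF-like sums gave 555 and 402 CPM, and without the deepest well of traced mouse 2 the change against lower HF-like cells was 2.38 ± 0.31 (SE, adjusted p = 7.56e-06), where 12.9% of genes were called. With that well it was 0.52 ± 0.48 (SE, adjusted p = 0.613), so that this value rests on 1 well.

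*Dsg3*, the desmoglein known from the basal layer and the target of antibodies in pemphigus vulgaris, was scarce, and its mean was lowest in IFE II-like cells, where that of *Dsg1a* was highest. It held 86.4, 29.4, 61.2 and 83.2 CPM in IFE I-like sums, 23.3, 29.8 and 11.2 CPM in IFE II-like sums, 45.9, 62.2 and 53.3 CPM in lower HF-like sums and 19.7, 31.7 and 49.9 CPM in upper HF-like sums. It did not pass the filter on low counts in mice 1 to 4. Traced sums held *Dsg3* at 43.8 and 9.3 CPM in IFE I-like, 68.5 and 78.9 CPM in lower HF-like and 0 and 5.74 CPM in upper HF-like sums. No *Dsg3* transcript was found in the 238943 transcripts of the traced IFE II-like sums, against 15 in 578562 for IFE I-like, so that its level was at least 2.06-fold lower, counting 3 transcripts over the class as the most that a count of 0 allows. That bound rests on traced mouse 1, which held 13 of the 15 transcripts. The difference did not pass the test (adjusted p = 0.186). Traced lower HF-like sums held 27 *Dsg3* transcripts and traced upper HF-like sums 1, a ratio of their levels of 24.2 with an exact interval from 3.98 to 989.7 that covers counting error only. *Dsg3* passed the filter of the traced mice through the lower HF-like sums, where it was highest, so the edgeR values of this pair (adjusted p = 0.0382, and 0.0553 with the mouse as a block) are given as a description.

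*Dsc3*, the desmocollin that basal keratinocytes use most, held 1498, 589, 1255 and 911 CPM in IFE I-like, 1768, 2379 and 1924 CPM in IFE II-like, 654, 1182 and 1089.9 CPM in lower HF-like and 866, 1171 and 689 CPM in upper HF-like sums. Every IFE II-like sum lay above every other sum. The change from IFE I-like to IFE II-like cells was 0.94 ± 0.33 (SE, adjusted p = 0.155) without the block and 1.16 ± 0.20 (SE, adjusted p = 7.58e-05) with it. Traced *Dsc3* sums went from 357 and 377 CPM to 1186 and 1029 CPM, or 1.60 ± 0.25 (SE, adjusted p = 0.000505), and lower HF-like sums held 678 and 952 CPM, or 1.16 ± 0.24 (SE, adjusted p = 0.00294) against IFE I-like cells.

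*Dsc1*, the desmocollin of the upper epidermal layers, had its highest mean in upper HF-like cells. In mice 1 to 4 it was found as 1 transcript in all IFE I-like sums, 14 in IFE II-like sums, 3 in lower HF-like sums and 31 in upper HF-like sums. The 6 of mouse 2 in IFE II-like cells all lay in 1 cell, and 4 in each of mice 3 and 4 lay in 2 and 3 cells. The upper HF-like sums gave 512, 15.8 and 39.9 CPM, so mouse 2 stood far above mice 3 and 4. Its 26 transcripts lay in 9 of 14 cells, with at most 5 in a cell. The ratio of upper HF-like to IFE I-like cells was 76.0, with an exact interval from 12.7 to 3099 that covers counting error only. Without mouse 2 it was 12.8, from 5 transcripts against 1, with an interval from 1.43 to 604. *Dsc1* failed the filter of the edgeR test in these mice; DESeq2, run on all genes, gave an adjusted p of 0.00472 for it. Traced sums held *Dsc1* at 16.8 and 0 CPM in IFE I-like, 113 and 188 CPM in IFE II-like, 6.22 and 49.3 CPM in lower HF-like and 316 and 293 CPM in upper HF-like sums. Upper HF-like sums lay above all others, and all 10 lower HF-like transcripts of traced mouse 2 came from the deepest well. *Dsc1* passed the filter of the traced mice through the upper HF-like and IFE II-like sums, where it was high, so its edgeR values are given as a description. The change against IFE I-like cells was 4.88 ± 0.66 (SE, adjusted p = 5.44e-05) in upper HF-like and 3.85 ± 0.75 (SE, adjusted p = 0.00292) in IFE II-like cells. Against lower HF-like cells the upper HF-like value was 3.32 ± 0.58 (SE, adjusted p = 0.00101), and without the deepest well 6.30 ± 0.79 (SE, adjusted p = 4.08e-06), from 96 transcripts against 1. The 38 cells of the traced upper HF-like cluster itself held 614 CPM of *Dsc1* and the 94 cells of the unnamed cluster 33.4 CPM. *Dsc2*, the desmocollin of simple epithelia, was near absent, with 4 transcripts over the 13 class sums of mice 1 to 4 and 5 over the 8 of the traced mice. It was not testable.

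In upper HF-like against IFE I-like cells no gene of the 7 was called in mice 1 to 4 without the block, where 6.21% of genes were called and 0 of the 7 had an unadjusted p under 0.05, and DESeq2 called 1, *Dsc1*, against 3.68% of genes. The log2 fold changes of the 7 by edgeR ran from -0.22 (*Dsc3*) to 1.03 (*Pkp1*). With the block 1, *Pkp1*, was called against 16% of genes. The traced mice gave 1 call of 9, *Dsc1*, against 11.5% of genes, and with the mouse as a block 2, *Dsc1* and *Dsp* (0.49 ± 0.14 (SE, adjusted p = 0.0203)), against 12.7% of genes. Without the unnamed cluster 7 of 9 were called, where 21.7% of genes were called and 10.4% were called higher. Those higher were *Dsp* (1.12), *Pkp1* (0.80), *Dsg1a* (1.79), *Dsc1* (5.65), *Dsc3* (1.13) and *Perp* (0.63, log2 fold changes), and *Pkp3* was lower (-1.04). Without the deepest well 3 were called, *Dsp*, *Dsg1a* and *Dsc1*, against 13.6% of genes. Between the traced follicle classes 2 of 9 were called, *Dsc1* higher and *Dsg3* lower in upper HF-like cells, where 9.57% of genes were called. With the block 3 were called, *Dsc1* higher and *Dsp* (-0.44 ± 0.14 (SE, adjusted p = 0.0467)) and *Perp* (-0.48 ± 0.13 (SE, adjusted p = 0.0193)) lower, against 10.3% of genes. The direction of *Dsp* rests on the unnamed cluster, without which it was 0.26 ± 0.19 (SE, adjusted p = 0.423). *Dsc1* and *Dsg3* were testable in the traced mice through the classes where they were high, so their calls add no support to these counts.

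*Perp* was read in nearly every epidermal cell. IFE I-like sums gave 4177, 3268, 3312 and 3966 CPM, IFE II-like sums 6048, 8263 and 8584 CPM, lower HF-like sums 4644, 4696 and 5509 CPM and upper HF-like sums 4291, 4543 and 4323 CPM. IFE II-like sums stood above all others. The change from IFE I-like to IFE II-like cells was 1.05 ± 0.21 (SE, adjusted p = 0.0115), the only one that edgeR called without the block, and it was not called when mouse 3 or mouse 4 was left out. With the block it was 1.12 ± 0.16 (SE, adjusted p = 3.18e-06). Traced sums gave 2415 and 2237 CPM in IFE I-like and 6899.7 and 5102 CPM in IFE II-like cells, or 1.37 ± 0.16 (SE, adjusted p = 3.48e-05). Lower HF-like cells had more *Perp* than IFE I-like cells in 5 of 5 mice, with 0.43 ± 0.21 (SE, adjusted p = 0.312) in mice 1 to 4 (0.49 ± 0.16 (SE, adjusted p = 0.0296) with the block) and 0.80 ± 0.16 (SE, adjusted p = 0.0019) in the traced mice.

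**Figure D2:**
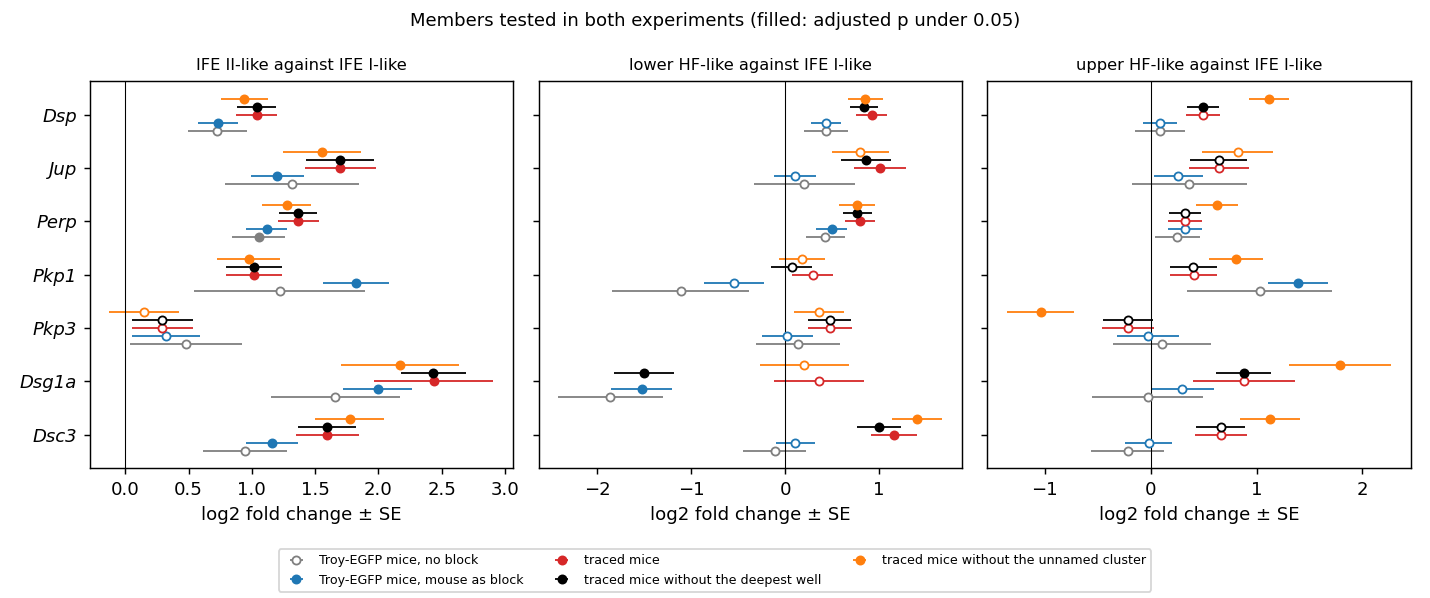
Log2 fold change against IFE I-like cells of the 7 genes testable in both sets of mice, with bars of 1 standard error, in mice 1 to 4 without and with the mouse as a block, and in the traced mice with all cells, without the deepest well and without the unnamed cluster. Filled points passed an adjusted p of 0.05: for IFE II-like cells *Perp* alone is filled without the block, 6 of 7 genes with it, and 6 of 7 in the traced mice, while *Pkp3* is open for these cells. For upper HF-like cells *Pkp3* is filled, as lower, in the traced mice without the unnamed cluster.

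Cell types caught in the same plates were read alongside. Of the marker lists of other cells, the T cell list (6 genes) summed to 0 to 73.4 CPM in the class sums of mice 1 to 4 and to 5.74 to 37.1 CPM in the traced sums, and the Langerhans cell list (6 genes) to 86.4 to 1266 CPM and 0 to 330.2 CPM. The sebaceous gland list (4 genes) was higher in IFE II-like than in IFE I-like sums in 5 of 5 mice, at 465 to 516 against 220.3 to 275 CPM in mice 1 to 4 and 236 to 309.9 against 163 to 195 CPM in the traced mice. Upper HF-like sums of this list were 138, 934 and 1308 CPM in mice 2 to 4, lowest in the mouse with most *Dsc1*, and 660 and 517 CPM in the traced mice. The melanocyte list (5 genes) summed to 252, 166 and 326 CPM in lower HF-like and to 39.3, 42.9 and 34.3 CPM in IFE I-like sums of mice 2 to 4, and to 698, 9.93 and 16.8 CPM in IFE II-like sums, of which that of mouse 2 was highest and also held the most *Dsp*. In the traced mice it summed to 74.0 to 93.4 CPM in lower HF-like and 10.1 to 363 CPM in IFE I-like sums. The fibroblast list (5 genes) summed to 31.1 to 57.3 CPM in lower HF-like and 0 to 14.7 CPM in IFE I-like sums of mice 1 to 4. Its traced sums were 83.8 to 130.7 and 4.65 to 94.3 CPM. The list used to remove necrotic cells (4 genes) summed to 8182 to 54162 CPM in mice 1 to 4 and to 798 to 2260 CPM in the traced mice. In IFE I-like and IFE II-like sums of mice 1 to 4 it ranged from 8182 to 42082 and from 12491 to 37081 CPM. It was higher in lower HF-like than in IFE I-like sums in each of mice 2 to 4 (29455 against 12151, 41906 against 25843 and 54162 against 42082 CPM), the mice in which *Dsg1a* was lower and, with the block, *Perp* higher in lower HF-like cells. Their part in the results was not tested.

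The make-up of each cadherin family does not depend on the scaling of the sums, since a share is taken within 1 family and each molecule is counted once at its end. Among desmoglein transcripts (*Dsg1a*, *Dsg1b*, *Dsg1c*, *Dsg2*, *Dsg3* and *Dsg4*), *Dsg1a* took 76.4, 70.6, 71.8 and 82.8% in IFE I-like cells of mice 1 to 4 and 96, 97.6 and 99.3% in IFE II-like cells of mice 2 to 4. Traced mice gave 65.6 and 58.9% and 99.4 and 97.7%. All 5 IFE II-like shares lay above all 6 IFE I-like shares. *Dsg3* took 5.45, 4.41, 9.09 and 9.14% of desmogleins in IFE I-like and 1, 1.31 and 0.481% in IFE II-like cells, and 36.4, 17.1 and 15.8% in lower HF-like cells, where the family had only 11, 35 and 57 transcripts. *Dsg2*, the desmoglein of simple epithelia and of proliferating keratinocytes, took 18.2, 25, 19.1 and 8.06% in IFE I-like and 3, 1.09 and 0% in IFE II-like cells.

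With 3 mice against 4 the two-sided exact permutation test cannot go below p = 0.0571, and 0 of 31 shares were called (smallest adjusted p = 0.177; 0 had an unadjusted p under 0.05). With the traced mice added, 5 mice against 6, the exact permutation test can reach p = 0.00433 and called 10 of 33 shares. The test took classes of the same mouse as separate samples. In IFE II-like against IFE I-like cells *Dsg1a* took 98% ± 1.39 (SD, n = 5) against 71% ± 8.31 (n = 6), an adjusted p of 0.0204 by the exact test. *Dsg2* took 1.27% ± 1.35 against 22.2% ± 10.1, and *Dsg3* 0.558% ± 0.589 against 6.83% ± 3.29, both with the same adjusted p. In lower HF-like cells *Dsg3* took 23.8% ± 12.4 of desmogleins (adjusted p = 0.0204, exact). This share includes the deepest well, which held 99 of the 116 *Dsg1a* transcripts of traced mouse 2 in that class. It also depends on how little *Dsg1a* those cells held. Mean *Dsg3* levels in lower HF-like and IFE I-like sums were 53.8 and 65.1 CPM in mice 1 to 4. In the traced mice they were 73.7 and 26.5 CPM. In upper HF-like cells *Dsg1a* took 88.2% ± 2.13 (adjusted p = 0.0204, exact).

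Among desmocollins, *Dsc1* took 37.1, 1.33 and 5.41% in upper HF-like cells of mice 2 to 4 and 38.1 and 30.7% in those of the traced mice. It took 7.32, 0.828 and 1.15% and 8.67 and 15.5% in IFE II-like cells and 0 to 4.5% in IFE I-like cells, and *Dsc3* made up nearly all of the rest. With the traced mice added, the upper HF-like share of *Dsc1* was 22.5% ± 17.8 (SD, n = 5), an adjusted p of 0.0286 (exact permutation test) against IFE I-like cells. Without the unnamed cluster that adjusted p was 0.0519 (exact). Among plakophilins, *Pkp1* took 64.1, 47.9, 19.8 and 25.2% in IFE I-like and 73.2, 49 and 52.3% in IFE II-like cells, with overlapping ranges. *Pkp4*, which also sits in adherens junctions, took 17.9, 31.5, 13.8 and 8.66% in IFE I-like and 4.23, 1.56 and 3.63% in IFE II-like cells. Over both experiments its share was 3.78% in IFE II-like, 3.21% in upper HF-like and 5.39% in lower HF-like cells against 16.7% ± 7.84 in IFE I-like cells, with adjusted p of 0.0204, 0.0204 and 0.0286 (exact).

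**Figure D3:**
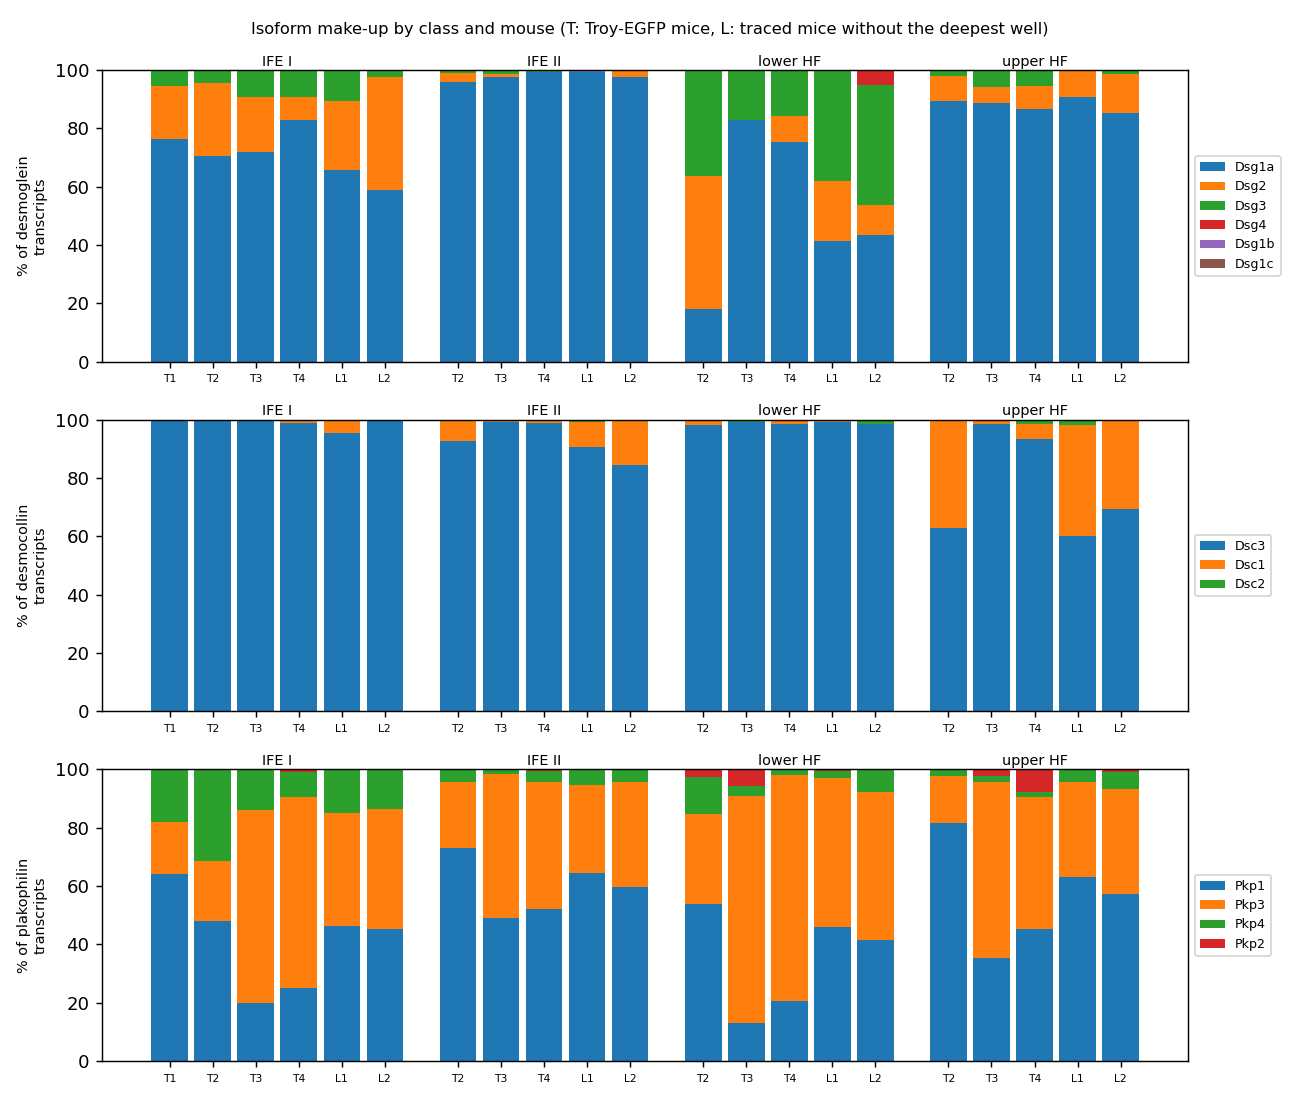
Share of each gene in the transcripts of its family (percent, stacked bars from 0) for desmogleins, desmocollins and plakophilins, with 1 bar per mouse in each class, T1 to T4 for mice 1 to 4 and L1 and L2 for the traced mice. The traced bars leave out the deepest well of traced mouse 2, which the tested shares in the text include. *Dsg1a* fills 96.0% or more of every IFE II-like desmoglein bar, and *Dsc1* takes 30.7% or more of the upper HF-like desmocollin bars of mouse 2 and both traced mice.

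Cells that held at least 1 transcript were counted after each cell was thinned to 1000 transcripts, because deeper cells show more genes. In mice 1 to 4 *Dsp* was seen in 94% of IFE II-like and 87.6% of IFE I-like cells, and in 98.1% and 85.3% of cells of the lower and the upper follicle class. T cell-like cells (43) and Langerhans cell-like cells (39) of the same plates, which should lack it, showed it in 44.2% and 10.3%. *Perp* was seen in 94.4% to 99.1% of cells of the epidermal classes, against 11.6% and 15.4%. *Dsg1a* was seen in 35.4% of IFE I-like and 68.1% of IFE II-like cells, and in 9.03% and 39.7% of cells of the lower and the upper follicle class, against 2.33% and 2.56%. Without thinning those 6 shares of *Dsg1a* were 65.8%, 91.4%, 17.4%, 51.5%, 4.65% and 7.69%, at median depths of 3224, 4369.5, 2480.0, 2976, 1716 and 3009 transcripts. Among the 4 epidermal classes, IFE II-like cells had the highest and lower HF-like cells the lowest share of *Dsg1a* both with and without thinning. The order of IFE I-like and upper HF-like cells changed with thinning.

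*Jup* was seen in 60.3% of thinned IFE II-like cells and in 26.7% of IFE I-like cells, and in 29% and 32.4% of the lower and the upper follicle class. *Pkp1* was seen in 39.7% of IFE II-like and 9.94% of IFE I-like cells, and *Dsc3* in 70.7% and 46%. *Pkp3* was seen in 19.4% to 29.3% of cells of the epidermal classes, against 9.3% of T cell-like cells. *Dsc1* reached 11.8% in upper HF-like cells and 1.72% in IFE II-like cells. It was seen in 0 of 43 T cell-like cells. Counting 3 cells as the most that a count of 0 allows, the share of such cells that show it is up to 6.98%. Most of the upper HF-like cells with *Dsc1* were from mouse 2: without thinning it was seen in 9 of 14 cells of mouse 2, in 1 of 22 of mouse 3 and in 2 of 30 of mouse 4. Among traced cells *Dsc1* was seen in 16.5% of upper HF-like and 5.88% of IFE II-like cells, and *Dsg1a* in 66.7% of IFE II-like and 17% of IFE I-like cells and in 7.48% and 24.2% of the lower and the upper follicle class. The traced upper HF-like class joins cells of different clusters: without thinning *Dsc1* was seen in 71.1% of the 38 cells of the upper HF-like cluster and 6.38% of the 94 cells of the unnamed cluster, and *Dsg1a* in 84.2% and 17.0%.

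**Figure D4:**
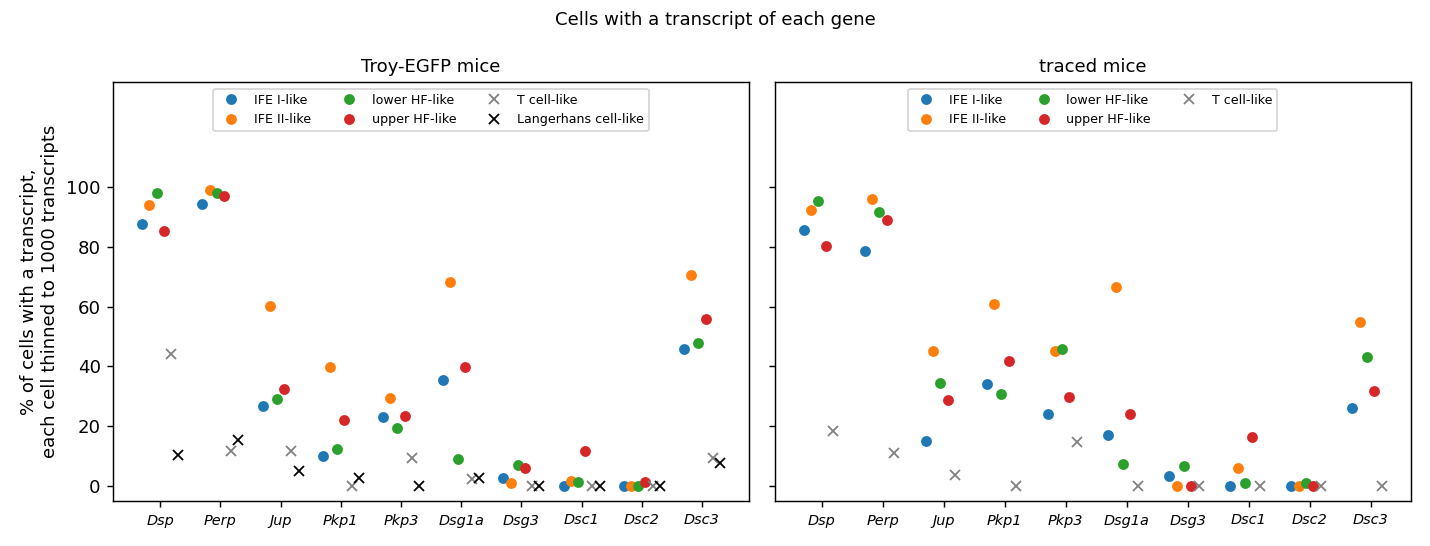
Share of cells (percent) with at least 1 transcript of each desmosome gene after thinning to 1000 transcripts, by class, in mice 1 to 4 and in the traced mice. *Dsg1a* runs from 9.03% in lower HF-like to 68.1% in IFE II-like cells of mice 1 to 4, while T cell-like cells stay at 2.33%.

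The sorted bulk populations ask whether basal cells with an active *Troy* locus differ in desmosome genes from other basal cells. *Tnfrsf19* transcripts from that locus stood at 91.0 ± 26.7 CPM (SD, n = 2) in EGFP+ and 28.8 ± 8.72 CPM (n = 2) in EGFP- libraries, a log2 fold change of 1.65 (edgeR adjusted p = 0.0434), the direction of the sort. In EGFP+ against EGFP- basal cells 0 of the 7 testable genes were called by edgeR, where 7.05% of 4653 genes were called. Of the 7, 3 had an unadjusted p under 0.05, and DESeq2 called 1, *Dsp*, and 2.33% of the genes to which it gave an adjusted p. EGFP+ libraries held 3274 and 2652 CPM of *Dsp*, EGFP- libraries 1797 and 1440.2 CPM and viable cells 2529.8 and 2648 CPM. The EGFP+ libraries lay above the EGFP- libraries in both mice, a log2 fold change of 0.87 ± 0.31 (SE, adjusted p = 0.0958), and by DESeq2 0.97 ± 0.26 (SE, adjusted p = 0.0146). *Dsg1a* held 343 and 171 CPM in EGFP+, 151 and 75.8 CPM in EGFP- and 296 and 259 CPM in viable cells. Its change between EGFP+ and EGFP- cells was 1.26 ± 0.40 (SE, adjusted p = 0.0617) without the block and 1.20 ± 0.35 (SE, adjusted p = 0.0159) with the mouse as a block.

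*Jup* went the other way, at 126 and 99.2 CPM in EGFP+ and 438 and 128 CPM in EGFP- libraries, with viable cells at 199.5 and 144 CPM. The first EGFP- library stood apart from the other, and the change was -1.26 ± 0.42 (SE, adjusted p = 0.0804) without the block and -1.25 ± 0.34 (SE, adjusted p = 0.00988) with it. The block thus called 2 of 7, *Dsg1a* higher and *Jup* lower, against 10.1% of genes. *Pkp1* held 1350.5 and 1213 CPM in EGFP+ and 1389 and 717 CPM in EGFP- cells. *Pkp3* held 241 and 144 and 98.1 and 152 CPM, *Dsc3* 681 and 573 and 377 and 676 CPM, and *Perp* 807 and 749 and 823 and 554 CPM. The ranges of these 4 genes overlapped, and their log2 fold changes lay between 0.18 and 0.63, none called. *Dsg3*, *Dsc1* and *Dsc2* had at most 8 counts in a library and were not testable. The median over the 7 genes was 0.29, against -0.04 for all genes.

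EGFP+ and viable cells gave 0 calls of 7, where 0.473% of genes were called, 0 of the 7 had an unadjusted p under 0.05, and DESeq2 called 0 (0.303% of genes). The log2 fold changes were -0.57 for *Jup*, -0.36 for *Dsc3*, -0.07 for *Dsg1a*, 0.10 for *Pkp1*, 0.19 for *Pkp3*, 0.20 for *Dsp* and 0.20 for *Perp*. EGFP- against viable cells also gave 0 of 7, where 1.78% of genes were called, 2 had an unadjusted p under 0.05, and DESeq2 called 0 (3.4% of genes). There *Dsp* stood at -0.68, *Dsc3* at -0.61, *Pkp3* at -0.44, *Pkp1* at -0.19, *Perp* at 0.02 and *Jup* at 0.69 on the log2 scale. With the mouse as a block *Dsg1a* was called in EGFP- against viable cells at -1.36 ± 0.34 (SE, adjusted p = 0.00897), against 3.5% of genes, and without it stood at -1.32 ± 0.39 (SE, adjusted p = 0.0951). These 3 comparisons share their libraries. Markers of follicle, sebaceous gland, immune, pigment, fibroblast and necrotic cells moved with the sorted populations. The 4 sebaceous gland markers summed to 158 to 225 CPM in EGFP+ and 461 to 521 CPM in EGFP- libraries. The 5 fibroblast markers summed to 5.36 to 13.5 and 64.1 to 83.0 CPM. The 7 upper HF markers summed to 2114 to 2314 CPM in EGFP+ and 7499 to 9920 CPM in EGFP- libraries, and the 8 IFE II markers to 4172 to 4301 and 1370 to 2031 CPM. The 6 T cell markers summed to 4.51 to 5.36 CPM in EGFP+ and 151.6 to 294.4 CPM in EGFP- libraries, with *Trdc* at 0 in all, and the 6 Langerhans cell markers to 99.2 to 104.5 and 1318 to 1329 CPM. The 5 melanocyte markers summed to 8.04 to 13.5 and 93.3 to 128 CPM, and the 4 genes used to remove necrotic cells to 8411 to 9070.0 CPM in EGFP+ and 13717 to 19423 CPM in EGFP- libraries. Their part in the changes of *Dsp*, *Dsg1a* and *Jup* was not tested.

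**Figure D5:**
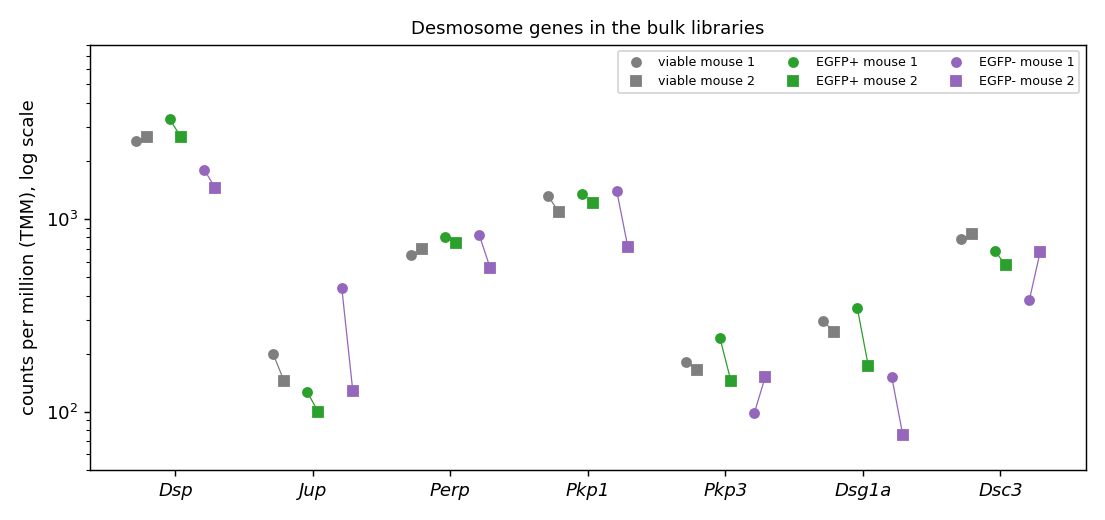
Level (CPM, log axis) of the desmosome genes in the 2 viable, 2 EGFP+ and 2 EGFP- bulk libraries, 1 point per library. EGFP+ libraries lie above EGFP- libraries for *Dsp* (3274 and 2652 against 1797 and 1440.2 CPM) and *Dsg1a*, and below them for *Jup*.

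Other junction genes were read from 3 lists. Of 12 desmosome-associated genes, 6 were testable in mice 1 to 4 and *Evpl* (envoplakin, a plakin of the cornified envelope) was called higher in IFE II-like than IFE I-like cells (1.43 ± 0.38 SE, edgeR adjusted p = 0.0489). The list's median log2 fold change was 0.90. In the traced mice *Evpl* (1.73) and *Ppl* (periplakin, 0.92) were called higher and *Dsg2* lower (3 transcripts against 64), of 5 testable. *Dsg2* was testable through classes where it was high, so its call is given as a description. *Ivl* (involucrin, a cornified envelope precursor) was found as 48 transcripts in the upper HF-like sums of mice 1 to 4, 0 in the IFE I-like and 1 in the lower HF-like sums, and as 64, 2 and 4 in the traced mice. Of 12 adherens junction genes, 9 were testable in mice 1 to 4, with a median of 0.19 in IFE II-like against IFE I-like cells and 1 call, *Ajuba* (-1.49, lower). In the traced mice, with 11 testable, *Pvrl4* (11 transcripts against 2) and *Ctnnd1* (p120 catenin, 1.42) were called higher and *Cdh3* (P-cadherin, -2.46) lower. *Pvrl4* was testable through classes where it was high, so its call is given as a description. Of 13 tight and gap junction genes, 8 were testable, with a median of 0.33 in IFE II-like against IFE I-like cells. In the traced mice, with 9 testable, *Gjb5* (2.40) was called higher and *Gja1* (connexin 43, -1.56) lower.

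In lower HF-like against IFE I-like cells *Mllt4* (afadin) was called higher in mice 1 to 4 (1.94) and in the traced mice (2.46). Traced cells also had *Pvrl4* (26 transcripts against 2) and *Pvrl1* (1.42), which are nectins, and *Ctnnb1* (beta-catenin, 0.89) called higher. Of the desmosome-associated genes *Dsg2* (-2.18) and *Pkp4* (-1.48) were called lower in them. Without the deepest well 3 of the 5 testable genes of that list were called lower, where 18.8% of all genes were called. The list's median log2 fold change there was -1.39, against -0.31 with that well. *Gja1* was lower in mice 1 to 4 (-2.63) and higher in the traced mice (1.33), a difference that was not tested. In upper HF-like against IFE I-like cells *Cldn4* (a claudin) was called higher, with 42 transcripts against 1 and 52 against 0, and *Gja1* (-3.26 and -3.16) and *F11r* (-1.77 and -1.85) lower, in mice 1 to 4 and the traced mice respectively. Traced cells also had *Pvrl4* (23 transcripts against 2), *Pvrl1* (2.06), *Mllt4* (1.25) and *Cldn1* (1.43) higher and *Cdh3* (-2.11) and *Pkp4* (-1.46) lower. Between the follicle classes *Ivl* and *Cldn4* (42 transcripts against 1 and 52 against 3) were called higher and *F11r* (-2.38 and -2.52) lower in upper HF-like cells of both sets of mice. *Evpl* (1.62) and *Cldn1* (1.30) were also higher in mice 1 to 4, and *Mllt4* (-1.21), *Ctnnb1* (-0.99), *Gja1* (-4.49) and *Gjb5* (-2.60) lower in the traced mice. *Ivl* and *Cldn4* passed the filter through the upper HF-like sums, and *Pvrl4* and *Dsg2* passed it in the traced mice through classes where they were high. The calls of these 4 genes are given as a description. In bulk EGFP+ against EGFP- cells *Cdh1* (E-cadherin, -1.10) and *Cldn1* (-1.53) were called lower and *Gja1* (1.41) higher, and no desmosome-associated gene of 5 was called. *Gja1* was lower in EGFP- than in viable cells (-1.68).

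The genes outside these lists whose log2 CPM followed the desmosome genes most closely over the 13 class sums of mice 1 to 4, among 2933 genes, are given as a description. The sums share plates, depth and classes. For *Dsp* they were *Hspa1b* (Pearson r = 0.872), *Lgalsl* (0.857) and *Itpr3* (0.845). For *Dsg1a* they were *Fam25c* (0.935), *Zfp385a* (0.916) and *Me1* (0.874). For *Dsc3* they were *Krt10* (0.917), *Atp6v0b* (0.851) and *BC004004* (0.823).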

How the data were processed

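The authors sorted adult mouse epidermal cells, made CEL-Seq2 libraries from bulk cells and from single cells in plates, and mapped reads with BWA 0.6.2-r126 to GRCm38 (mm10), per the labels. The labels also name the build hg19. The deposited bulk tables hold counts per gene, one column per sorted population. The deposited plate tables hold, for each gene and well, an estimated count of molecules that the authors corrected for barcodes drawn more than once. The values are whole numbers of barcodes out of a pool of 4096 after that correction (within 1e-06) and were rounded to whole transcripts per class sum. A 4-base barcode named in the labels could not give these values. A table of well barcodes was not used. No column was left unmapped.

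ERCC and mitochondrial rows and wells under 1000 transcripts were removed. Cells of mice 1 to 4 were clustered with Seurat 5.3.0 (SCTransform, 3000 variable genes, 20 components, resolution 0.8) without any listed junction gene. Classes passed to traced cells by 924 anchors. Each well was sorted as 1 cell, so no doublet caller was run, and 57 + 41 cells of necrotic or unassigned clusters were left out. Sums of at least 10 cells were tested with edgeR 4.0.16 (R 4.3.3) by its quasi-likelihood F test after filterByExpr and TMM scaling, with p-values adjusted by Benjamini-Hochberg over all genes tested and 0.05 as the threshold. DESeq2 1.42.0 was an alternative. Family shares were compared by two-sided exact permutation tests (SciPy 1.17.1), and intervals are exact at 95%. Intervals and floors cover counting error only. Wells carry the same 384 barcodes on every plate, so shared barcodes cannot show shared cells.

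Populations and classes with the same number come from the same mouse, which gives the pairing. Deviations from group means correlated at 0.325 to 0.630 between classes of a mouse in mice 1 to 4, at 0.0521 to 0.0900 in bulk and at -0.0134 to 0.0998 in the traced mice. The main fits had no replicate block, which was an alternative. Other alternatives were median-of-ratios scaling, no filter on low counts, other minimum depths and cell numbers, resolution 0.5, observed barcodes, a transfer score of at least 0.7, mice left out in turn, and, added after seeing the data, mice 3 and 4 alone, the deepest traced well left out and the unnamed traced cluster left out. On simulated data with 200 genes changed by a log2 fold of 2, the test recovered 79% (bulk EGFP+ against EGFP-, 4653 genes), 64% (IFE II-like against IFE I-like in mice 1 to 4, 2963 genes) and 63.5% (the same in the traced mice, 4470 genes), and 1.25%, 8.57% and 5.93% of its calls were false.

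The 10 genes and the other lists were chosen with earlier results of these data known. The naming rule takes all 10 genes in every comparison; where few were called, others are given by count or range only. From each other list the called genes are named, at most 4 by size of change (1 result that this rule would name is not reported here), and the 3 genes most alike are given for *Dsp* and for the desmoglein and desmocollin of highest mean level.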

Additional observations from a re-analysis of the deposited data

Results flagged for a closer look

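In IFE I-like cells of the 4 *Troy*-EGFP mice, *Dsc1* stood at 4.90 CPM in mouse 4 and at 0 in the other 3 mice, and so did *Dsc2*, which put mouse 4 apart from the rest of its group by Dixon's criterion. Each value is a single transcript, and any single transcript beside zeros meets this criterion, so that the usual rate of about 1 in 20 by chance does not apply. Of 10 groups of 4 tested this way, these 2 stood out.

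*Pkp1* in lower HF-like against IFE I-like cells went down in each of mice 2 to 4 (mean log2 ratio -0.60) and up in each traced mouse (0.29). The difference was not tested. It is 1 of 29 contrasts compared between the experiments. Without the deepest well of traced mouse 2 its lower HF-like sum held 554 CPM of *Pkp1* and its IFE I-like sum 653 CPM, so the opposite direction in that mouse rests on 1 well.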

How the results depend on the processing

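Of 123 counts of called genes under alternatives, 81 stayed within 1.5 times of the reported count. With the mouse as a replicate block the calls became 2 in bulk EGFP+ against EGFP-, 1 in EGFP- against viable, 6 in IFE II-like against IFE I-like, 2 in lower HF-like against IFE I-like, 1 in upper HF-like against IFE I-like, 2 between the follicle classes and 2 in traced upper HF-like against IFE I-like. The block moved no other count by over 1.5 times. DESeq2 gave 1 in bulk EGFP+ against EGFP-, 3 in IFE II-like against IFE I-like, 1 in each of the other class comparisons of mice 1 to 4 and 1 between the traced follicle classes (2.79% of genes). No filter on low counts gave 2 in EGFP+ and 1 in EGFP- bulk comparisons, 2 for IFE II-like, 1 for lower HF-like, 1 for upper HF-like against IFE I-like, 3 between the follicle classes and 2 in traced upper HF-like cells, where 0.82% to 4.78% of all genes were called. Mice 3 and 4 alone gave 6 for IFE II-like (9.93% of all genes called), 1 for lower HF-like (11.5%) and 2 between the follicle classes (10.7%), and sums of at least 5 cells gave 0, 1 and 1 (3.51%, 7.55% and 6.5%). In traced upper HF-like against IFE I-like cells, median-of-ratios scaling gave 2 (11.5% of genes), leaving out the deepest well 3 and leaving out the unnamed cluster 7. With the traced mice added, 10 family shares were called in place of 0, also without that well or without that cluster. Without that cluster they were not the same 10, since the upper HF-like share of *Dsc1* was not called.

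Leaving out 1 library at a time gave 0 to 3 calls in bulk EGFP+ against EGFP- (3 without either EGFP- library, where 7.71% and 13.4% of all genes were called), 0 to 2 in EGFP- against viable (2 without either EGFP- library, 3.21% and 8.31% of genes), 0 to 3 in IFE II-like against IFE I-like (0 without mouse 3 or 4, with 0% and 0.107% of genes, and 3 without mouse 2, with 6.92%) and 0 to 1 in lower HF-like against IFE I-like (1 without mouse 2, with 8.66%). A lone bulk library was assumed to vary like the other populations. The EGFP- pair differed most of the 3 populations (chi-square per degree of freedom 4.06), so leaving one out takes that spread from the fit, and those counts do not speak for stability. With 1 traced mouse there is no spread to test against, so values only were taken.

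Directions turned mostly for values near 0 (log2 fold changes). In EGFP+ against EGFP-, leaving out a library gave -0.049 to 0.85 for *Pkp1* and -0.015 to 0.51 for *Perp* (both lowest without the second EGFP- library) and -0.088 to 0.80 for *Dsc3* (lowest without the first). In lower HF-like against IFE I-like cells *Pkp3* was -0.0019 with sums of at least 5 cells. *Dsc3* was 0.071 in mice 3 and 4, 0.11 with the replicate block, 0.080 in wells of at least 2000 transcripts, and -0.25 to 0.082 with a mouse left out (highest without mouse 1). In the traced mice *Dsg1a* turned to -1.50 and *Dsc1* to -1.42 without the deepest well, and *Dsg1a* log2 ratios were -1.85 and 1.21 with only traced mouse 1 or 2, that of *Dsc1* -1.44 with only traced mouse 1. Between the traced follicle classes *Dsp* was 0.26 without the unnamed cluster, and the *Dsg1a* ratio was 2.89 with only traced mouse 1 and -0.51 with only traced mouse 2. Except for the deepest well, the cause was not tested. Depth limits *Dsg3*, *Dsc1* and *Dsc2*, and 10 cells are behind the only sum of mouse 1.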
